A study of Sus scrofa with 2 samples.

Results

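The antioxidant, glutathione and thioredoxin-fold genes were examined in biceps femoris muscle of newborn cloned piglets. The members were the entry ENSSSCG00000009059, described as microsomal glutathione S-transferase 2-like (MGST2), and every entry whose protein description named a glutathione enzyme, peroxiredoxin, superoxide dismutase, catalase, thioredoxin, glutaredoxin, metallothionein, sulfiredoxin, quinone reductase, methionine sulfoxide reductase or selenoprotein. This rule gave 63 of the 12535 genes with reads. Metallothioneins and sulfiredoxin gave 0 entries, and SOD1, GPX1 and GPX4 were not analysed here, so the glutathione and thioredoxin branches made up most of the set.

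All animals were male Large White piglets made by somatic cell nuclear transfer, delivered by caesarean section and sampled on Day 1. The abnormal cloned group, labelled as developmental failure, was a pool of 3 piglets with an enlarged tongue, an umbilical defect and impaired standing and walking, and the normal cloned group was a pool of 4 piglets (3 per the labels). All 3 abnormal and 2 normal piglets came from embryonic fibroblasts of the same male. Ear fibroblasts taken on Day 1 after birth from a second male gave the other 2 normal piglets. This difference of donor, donor stage and cell source cannot be told apart from the group. With 1 library per group there is no replicate check, and every test below compares these libraries, not the conditions.

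Cells use these genes to remove peroxides, to keep the cysteines of proteins reduced and to conjugate reactive compounds. Glutathione is made from glutamate, cysteine and glycine, with glutamate-cysteine ligase as the limiting step. Glutathione peroxidases, glutathione S-transferases and glutaredoxins then spend it. Peroxiredoxins reduce peroxides and are themselves reduced by thioredoxin, which thioredoxin reductase recharges with NADPH. In muscle, contraction and mitochondrial respiration are the main sources of the oxidants that this network handles. The transcription factor NRF2 switches on many of its genes, among them those for glutamate-cysteine ligase, thioredoxin reductase 1 and NQO1.

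The library of the abnormal cloned group held 6.38 M uniquely mapped reads and that of the normal cloned group 6.52 M. At this depth 3 reads made 0.470 and 0.460 RPM, the reads divided by the library total in M. Levels are given as RPKM, which is the RPM divided by the transcript length in kb. Ratios are log2 ratios of the abnormal to the normal RPKM, with a 95% Wilson interval that covers counting error only. To be called a DEG, a gene needed a log2 ratio of 1 or more in size and a false discovery rate (FDR) of at most 0.001 in the two-sided Audic-Claverie test, adjusted by Benjamini-Hochberg over all 12535 genes. Transcripts of the mitochondrial genome took 36.0% of the abnormal and 46.1% of the normal library, and the abnormal cloned group had the higher RPKM for 68.8% of the 8589 genes with at least 10 reads in 1 library or both. Rescaling by the median ratio of all genes lowered every log2 ratio by 0.36, and such values are given below as rescaled. As to the labelled tissue, 4 of 8 muscle markers were matched by name to entries with reads. Markers not matched by name can still have reads, here and in the lists below. ACTA1, MYH1, MYH2 and MYH4 together took 8.19% of the abnormal and 7.88% of the normal library.

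Of the 63 members, 58 had reads in both libraries and 5 in the normal library alone. At least 10 reads in 1 library or both were counted for 53 members, of which 31 stood higher in the abnormal pool and 22 in the normal pool. Their median log2 ratio was 0.15, with the middle 50% between -0.37 and 0.71, against 0.41 over all genes with as many reads, and rescaled these medians were -0.21 and 0.050. Up-regulation was called for 7 members, GCLM, MSRB3, TXNRD1, GCLC, TMX1, TXNL1 and TMX2, which is 11.1% of the members beside 12.0% of all genes. Down-regulation was called for 3 members, MGST2, GLRX and PRDX2, which is 4.76% of the members beside 1.45% of all genes. These shares include entries under 10 reads, and 53 of 63 members but 8589 of 12535 genes had at least 10 reads. After rescaling, 4 members were up-regulated and 7 down-regulated, while among all genes the calls moved from 1510 and 182 to 812 and 498. When pools of a group were assumed to vary by 0.2 (biological coefficient of variation, edgeR), only GCLM and MSRB3 of these 10 members were called, beside 243 up- and 20 down-regulated of all genes.

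**Figure D1:**
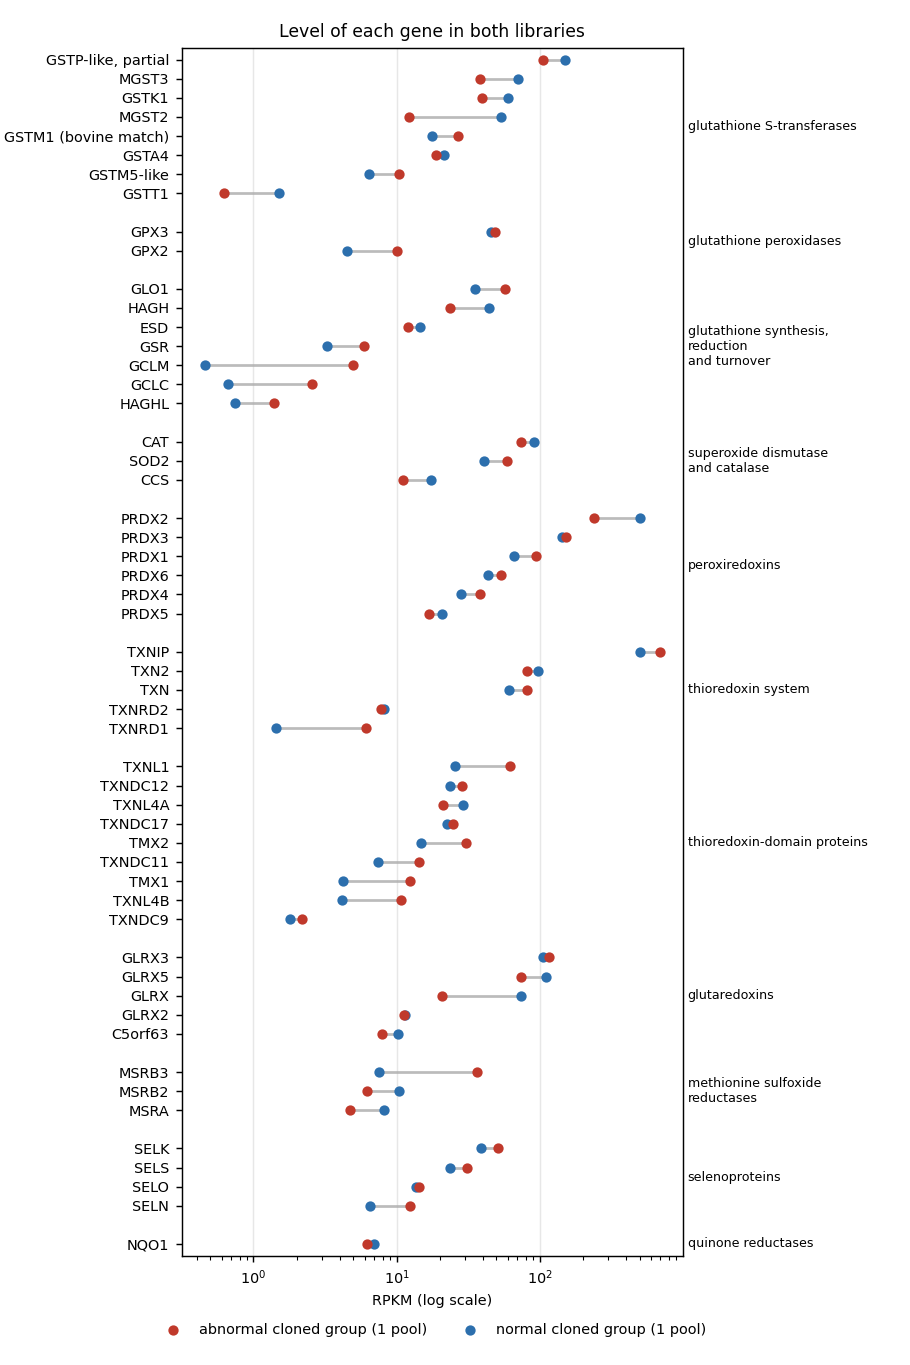
RPKM (log scale) of each member with at least 10 reads in 1 library or both, by role, with the abnormal cloned group in red and the normal cloned group in blue, 1 pool each. TXNIP and PRDX2 stood highest in both libraries, and the widest gaps were those of GCLM, MSRB3 and MGST2.

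The level of the members spanned more than their change. TXNIP, which binds and inhibits thioredoxin, had the highest RPKM in the abnormal cloned group, 692, against 503 in the normal cloned group. PRDX2 had 239 RPKM in the abnormal against 506 in the normal pool, where it stood just above TXNIP. All members together took 0.380% of the reads of the abnormal and 0.352% of the normal library, and without TXNIP the order turned, with 2248 RPM in the abnormal against 2396 RPM in the normal pool.

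Transcripts of both subunits of the limiting enzyme of glutathione synthesis stood higher in the abnormal cloned group. GCLM (gene 100153977, chromosome 4, 127667481 to 127682990 in Sscrofa9, as all coordinates here), the modifier subunit of glutamate-cysteine ligase, drew 53 reads from the abnormal and 5 from the normal pool, or 4.94 and 0.456 RPKM. This gave a log2 ratio of 3.44 (95% interval 2.16 to 4.72, FDR = 1.99e-10), or 3.08 rescaled. GCLC (gene 100522018, chromosome 7, 31548098 to 31590458), the catalytic subunit, drew 38 reads from the abnormal and 10 from the normal pool, or 2.57 and 0.663 RPKM. Its ratio came to a log2 value of 1.96 (95% interval 0.97 to 2.94, FDR = 0.000216), which was 1.60 rescaled and no longer called. The GCLC call was also lost under TMM, totals without mitochondrial transcripts, a correction for transcript length and the edgeR test. Both subunits were thus higher in the abnormal pool from a low level. Their summed reads were 91 against 15, with 53 against 5 from GCLM, a log2 ratio of 2.63 (95% interval 1.85 to 3.41). This sum adds no support beyond the single genes.

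The other enzymes of glutathione reduction and turnover, leaving aside the transferases, peroxidases and glutaredoxins described below, did not pass the thresholds. GSR, the reductase that restores glutathione, had 73 and 41 reads in the abnormal and the normal library, a log2 ratio of 0.86 (FDR = 0.00859). GLO1 and HAGH, the successive enzymes of the glyoxalase pathway that clears methylglyoxal, lay on opposite sides. GLO1 (gene 100156085) had 57.2 RPKM in the abnormal against 35.6 in the normal pool, a log2 ratio of 0.68 (95% interval 0.48 to 0.89). The HAGH entry (gene 100520831), a partial transcript of 362 bases, had 23.8 and 44.1 RPKM, a log2 ratio of -0.89 (95% interval -1.36 to -0.42), and rescaled it was called at -1.25. ESD, the S-formylglutathione hydrolase, had 86 and 108 reads at -0.30, and the HAGH-like HAGHL had 11 and 6 reads. In this group of 8 entries, 7 had at least 10 reads, 5 of them were higher in the abnormal cloned group, and only the 2 ligase subunits were called. Over all genes with as many reads 68.8% were higher, and 12.0% of all 12535 genes were called up-regulated.

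Among the glutathione S-transferases, which couple glutathione to reactive compounds, most members with enough reads lay lower in the abnormal cloned group. Of 14 entries 8 had at least 10 reads, of which 6 were lower and 2 higher, with a median log2 ratio of -0.56. Over all genes with as many reads 2683 of 8589 were lower, at a median of 0.41. Of all 12535 genes 1.45% were called down-regulated. The 14 entries summed to 217 RPM in the abnormal against 308 RPM in the normal pool. The other scalings lower every log2 ratio, so they could not turn this order and are no check of it. MGST2 (chromosome 8, 75278292 to 75282372), a membrane enzyme of the family that also makes leukotriene C4, was the only member of this group called. It drew 28 reads from the abnormal and 127 from the normal pool, or 12.2 and 54.0 RPKM. The log2 ratio was -2.15 (95% interval -2.74 to -1.56, FDR = 6.75e-15), or -2.51 rescaled.

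The related membrane enzyme MGST3 (gene 733607, chromosome 4, 88506142 to 88531579) drew 228 reads from the abnormal and 428 from the normal pool, or 38.3 and 70.3 RPKM. Its log2 ratio of -0.88 (95% interval -1.11 to -0.65, FDR = 3.73e-13) missed the threshold of size and was called at -1.24 after rescaling. GSTK1, the kappa enzyme of mitochondria and peroxisomes, had 39.6 and 60.2 RPKM in the abnormal and the normal library. The partial GSTP-like entry (gene 100525204), the most abundant transferase, had 106 and 151 RPKM. Neither was called, with log2 ratios of -0.60 and -0.51. The mu-class entries were the exceptions in direction, with 56 against 35 reads for GSTM5-like and 156 against 104 for the entry matched to bovine GSTM1. GSTA4 had 18.8 and 21.3 RPKM at -0.18, and GSTT1, of the theta class, had 4 and 10 reads.

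Several transferase entries lay side by side. Only uniquely mapped reads were counted, so reads shared by near-identical copies are left out. On chromosome 7 the alpha-class genes spanned 135662374 to 135831510, and of these GSTA4 had 152 and 176 reads in the abnormal and the normal library while the A1-like and A2 entries had at most 2. On chromosome 2 the partial GSTP-like entry had 473 and 689 reads, and the other GSTP-like entry, 46565 bases away, had 5 and 6. In both places the uniquely mapped reads fell almost entirely on a single entry in both libraries. Such counts cannot show the level of sequence that copies share. On chromosome 4 GSTM5-like and the entry matched to bovine GSTM1 lay 44442 bases apart. Both had reads there, 56 and 35 for the former and 156 and 104 for the latter.

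The glutathione peroxidases were represented by GPX2 and GPX3, which reduce peroxides with glutathione. GPX3 (ENSSSCG00000017092), the secreted form, had 49.1 RPKM in the abnormal against 45.9 in the normal pool, a log2 ratio of 0.099 (95% interval -0.10 to 0.30) that turned to -0.26 when rescaled. GPX2 (gene 767625, chromosome 7, 97548918 to 97553157), best known from the gut epithelium, had 67 and 31 reads, or 4.54 RPKM in the normal library. The log2 ratio was 1.14 (95% interval 0.53 to 1.75), and its FDR of 0.00102 lay just outside the threshold.

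Superoxide dismutase 2 and catalase, which handle superoxide and hydrogen peroxide in mitochondria and peroxisomes, were both abundant and neither was called. SOD2 (gene 100154319) had 59.1 RPKM in the abnormal against 40.8 in the normal pool, a log2 ratio of 0.54 (95% interval 0.36 to 0.71). CAT (gene 397568) had 74.4 and 92.0 RPKM, a log2 ratio of -0.31 (95% interval -0.42 to -0.19). CCS, the chaperone that loads copper into SOD1, had 11.1 and 17.3 RPKM, a log2 ratio of -0.64.

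**Figure D2:**
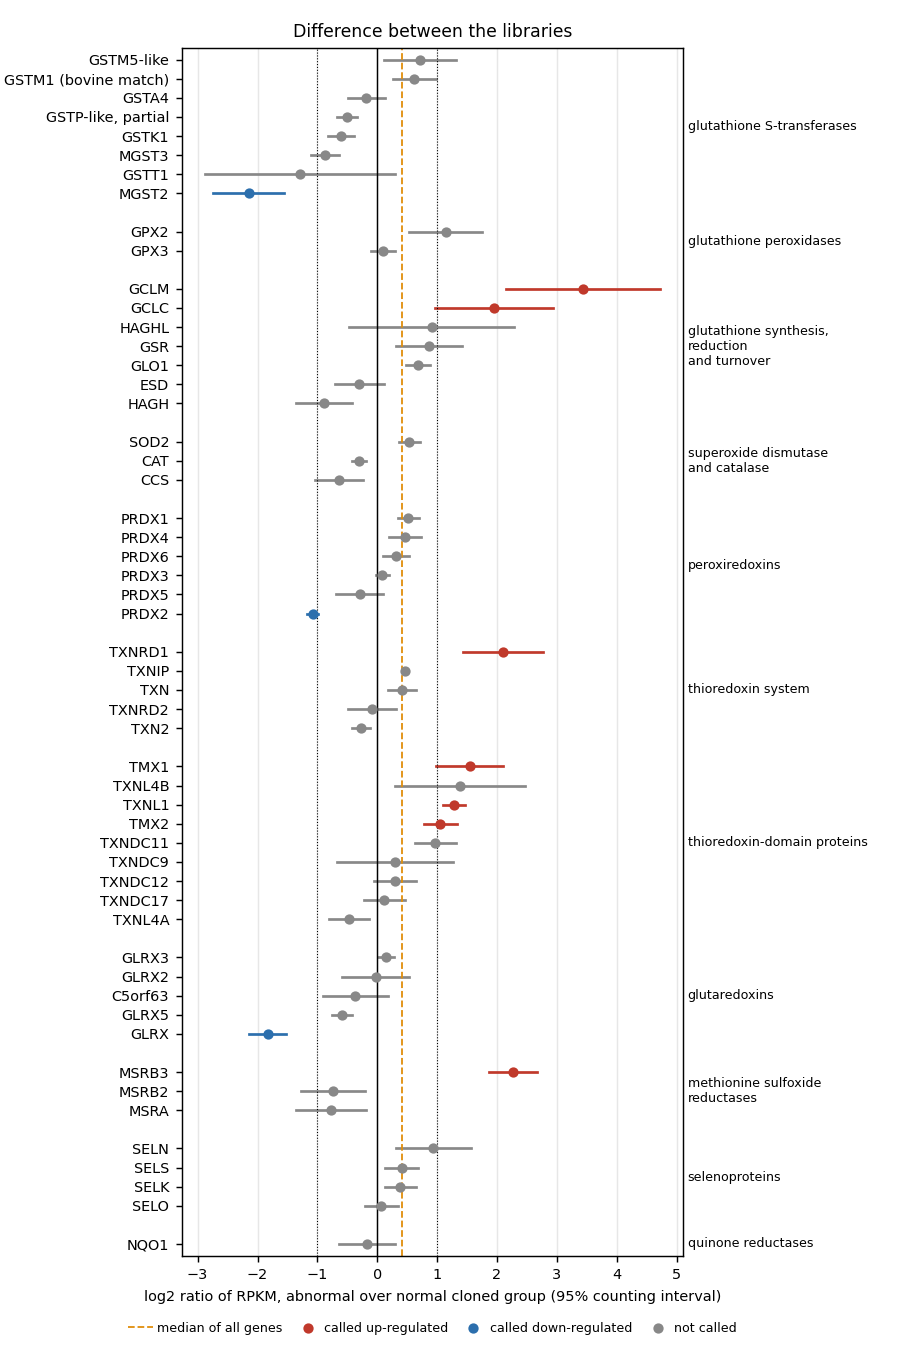
Log2 ratio of the abnormal to the normal RPKM of each member with at least 10 reads in 1 library or both, with its 95% counting interval. Red and blue points are called up- and down-regulated, dotted lines mark a log2 ratio of 1 in either direction, and the dashed line is the median of all genes at 0.41. The down-regulated MGST2, GLRX and PRDX2 each stood at the bottom of its group.

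In the peroxiredoxin family a single gene was called, and it was the most abundant. PRDX2 (gene 100512521, chromosome 2, 56062674 to 56066310), a cytosolic peroxidase, drew 1449 reads from the abnormal and 3130 from the normal pool. This gave a log2 ratio of -1.08 (95% interval -1.17 to -0.99, FDR = 1.4e-129), or -1.44 rescaled. Its share of the summed RPKM of the family was 40.1% in the abnormal against 62.5% in the normal library. PRDX3, the mitochondrial form, had 153 and 145 RPKM, a log2 ratio of 0.083 that turned to -0.28 when rescaled. PRDX1, the closest cytosolic relative of PRDX2, had 94.7 RPKM in the abnormal against 66.2 in the normal pool, a log2 ratio of 0.52 (95% interval 0.34 to 0.69). PRDX4 and PRDX6 were likewise above 0 at 0.46 and 0.31, and PRDX5 was at -0.29, so the lower sum of the family, 642 against 836 RPM, went with PRDX2.

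PRDX2 is also one of the most abundant proteins of red blood cells. Of 9 red-cell markers 6 were matched, and their sum was 1281 RPM in the abnormal against 1898 RPM in the normal pool, a log2 ratio of -0.57. The globins HBA and HBB made up nearly all of it, at log2 ratios of -0.60 and -0.54, while ALAS2 had 86 and 84 reads and SLC4A1 had 21 and 5. None of these markers was called, none of the 6 was at 0 in either library, and their part in the PRDX2 value was not tested. In bulk tissue, fewer cells of a type and less RNA per cell cannot be told apart.

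**Figure D3:**
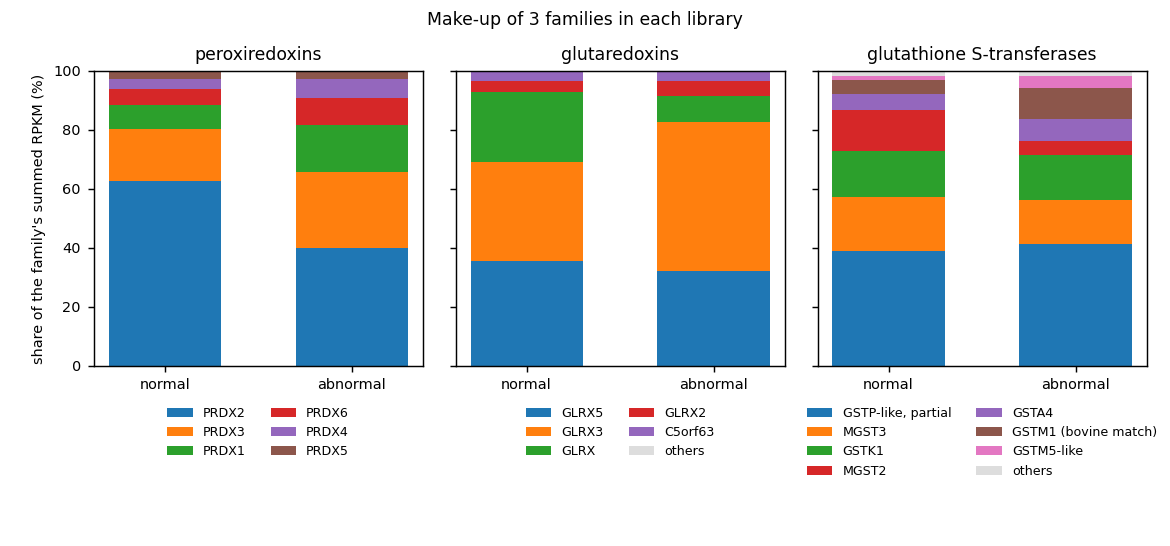
Share of the summed RPKM of the peroxiredoxins, glutaredoxins and glutathione S-transferases taken by each member in the normal and the abnormal library (stacked bars, 0 to 100%). PRDX2 took 62.5% of its family in the normal and 40.1% in the abnormal library, and GLRX took 23.7% and 9.03% of the glutaredoxins.

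In the thioredoxin system the cytosolic reductase was called, and thioredoxin and the thioredoxin inhibitor TXNIP were not. TXNRD1 (gene 100514050, chromosome 5, 75142989 to 75208149), the cytosolic selenoenzyme that reduces thioredoxin, drew 92 reads from the abnormal and 22 from the normal pool, or 6.14 and 1.44 RPKM. The log2 ratio was 2.10 (95% interval 1.43 to 2.76, FDR = 1.05e-10), or 1.74 rescaled. TXNRD2, its mitochondrial counterpart, drew 92 reads from the abnormal and 100 from the normal pool, a log2 ratio of -0.089 (95% interval -0.50 to 0.32). The intervals of the reductases did not overlap. The 92 reads on TXNRD1 covered 38.7% of its transcript, and those on TXNRD2 covered 81.8%.

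TXN (gene 397581), cytosolic thioredoxin, had 81.9 RPKM in the abnormal against 61.4 in the normal pool, a log2 ratio of 0.42 (95% interval 0.18 to 0.65). TXN2 (ENSSSCG00000000144), the mitochondrial form, had 81.2 and 97.9 RPKM, a log2 ratio of -0.27 (95% interval -0.42 to -0.11). TXNIP (gene 733688, chromosome 4, 103433742 to 103437296) had 9876 and 7327 reads, a log2 ratio of 0.46 (95% interval 0.42 to 0.51). That value was close to the median of all genes and came to 0.10 when rescaled.

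The thioredoxin-domain proteins, several of which act in protein folding, lay mostly higher in the abnormal cloned group. Of 10 entries 9 had at least 10 reads, of which 8 were higher and 3 were called, all up-regulated, with a median log2 ratio of 0.97. Of the 8589 genes with at least 10 reads 68.8% were higher. The share called up-regulated was 12.0% of all 12535 genes, which include those under 10 reads. The thioredoxin-domain entries summed to 288 RPM in the abnormal against 164 RPM in the normal pool. This was a log2 ratio of 0.81 (95% interval 0.70 to 0.92) that kept its sign under the other scalings. TMX1 (gene 100152543, chromosome 1, 189208952 to 189222829), a membrane oxidoreductase of the endoplasmic reticulum, had 97 and 34 reads, or 12.4 and 4.24 RPKM. Its ratio came to a log2 value of 1.54 (95% interval 0.98 to 2.10, FDR = 1.21e-07), or 1.18 rescaled.

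TXNL1 (gene 100512385, chromosome 1, 109164800 to 109204634), a cytosolic protein bound to the proteasome, had 769 and 323 reads, or 62.2 and 25.6 RPKM. The log2 ratio was 1.28 (95% interval 1.10 to 1.47, FDR = 4.85e-43), or 0.92 rescaled, under the threshold. TMX2 (gene 100520175, chromosome 2, 11235446 to 11246663) had 329 and 162 reads, a log2 ratio of 1.05 (95% interval 0.78 to 1.32, FDR = 7.63e-14), or 0.69 rescaled. TMX2 overlaps MED19 on the opposite strand, which had 103 and 124 reads, and reads in the overlap cannot be assigned without strand. Of the others, TXNDC11 lay at 0.97 and TXNL4B at 1.38 on 23 and 9 reads, and both missed a threshold. TXNDC12 had 28.9 and 23.6 RPKM at a log2 ratio of 0.29, which was -0.066 rescaled, and TXNL4A, a spliceosome component, was the lower member at -0.47. TXNDC12 overlaps an unnamed entry on the same strand with 44 and 19 reads. TXNDC17 had 134 and 126 reads at 0.12, and TXNDC9, which lies within EIF5B on the opposite strand, had 18 and 15 reads.

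Glutaredoxins remove glutathione from protein cysteines or carry iron-sulfur clusters. GLRX (gene 397463, chromosome 2, 91521702 to 91533080), the cytosolic deglutathionylating enzyme, drew 110 reads from the abnormal and 400 from the normal pool, or 20.8 and 74.1 RPKM. This gave a log2 ratio of -1.83 (95% interval -2.14 to -1.53, FDR = 4.8e-37), or -2.19 rescaled. GLRX5, the mitochondrial iron-sulfur carrier, had 74.2 and 112 RPKM, a log2 ratio of -0.59 (95% interval -0.76 to -0.42). GLRX3, which acts in cytosolic iron handling, had 116 and 105 RPKM, a log2 ratio of 0.15 that was -0.21 rescaled. GLRX2, a mitochondrial form, had 49 and 51 reads, and the glutaredoxin-like C5orf63 had 47 and 62. GLRX thus differed most, and its share of the summed RPKM of the group was 9.03% in the abnormal against 23.7% in the normal library.

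The methionine sulfoxide reductases, which repair oxidised methionine, split. MSRB3 (ENSSSCG00000000470, chromosome 5, 29406217 to 29561170), found in the endoplasmic reticulum and mitochondria, drew 278 reads from the abnormal and 59 from the normal pool, or 36.3 and 7.53 RPKM. Its ratio came to a log2 value of 2.27 (95% interval 1.86 to 2.67, FDR = 1.08e-34), or 1.91 rescaled. MSRA had 36 and 63 reads and MSRB2, the mitochondrial form, had 44 and 75, at log2 ratios of -0.78 and -0.74. The intervals of MSRA, -1.36 to -0.19, and MSRB2, -1.27 to -0.20, lay wholly below that of MSRB3, and both were called down-regulated after rescaling, at -1.14 and -1.10.

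Of the selenoproteins, all 4 lay above 0 and none was called. Their median log2 ratio was 0.39, beside 0.41 over all genes with at least 10 reads, of which 68.8% lay above 0. SELK and SELS, membrane proteins of the endoplasmic reticulum, had 50.9 and 31.2 RPKM in the abnormal and 39.1 and 23.6 RPKM in the normal library. SELN, which acts in calcium handling and is mutated in congenital muscle disease, had 58 and 31 reads at 0.93 (FDR = 0.0138). SELO, a mitochondrial pseudokinase, had 14.4 and 13.7 RPKM, and its log2 ratio of 0.065 was -0.29 rescaled. The sum of the group, at a log2 ratio of 0.33, likewise turned to -0.033 when rescaled. NQO1 (gene 100286873), the quinone reductase, had 6.20 and 6.96 RPKM, a log2 ratio of -0.17 (95% interval -0.63 to 0.30). This NRF2 target was therefore not among the members called, unlike GCLM, TXNRD1 and, before rescaling, GCLC.

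By their protein description, 10 members were mitochondrial, namely HAGH, GSR, SOD2, PRDX3, PRDX5, TXNRD2, TXN2, GLRX5, GLRX2 and MSRB2. They had 0 calls in either direction, 3 lay above and 7 below a log2 ratio of 0, and their median log2 ratio was -0.18. After rescaling HAGH and MSRB2 were down-regulated. Of all 12535 genes, which include those under 10 reads, 12.0% and 1.45% were called up- and down-regulated. These 10 members all had at least 10 reads, so the shares are not a like background, and the 0 calls are not read as a result. Of all genes with at least 10 reads 68.8% lay above 0, at a median of 0.41. The other members with at least 10 reads, 43 in number, had a median of 0.31. In the pairs with a cytosolic and a mitochondrial form, the cytosolic TXN and TXNRD1 lay above TXN2 and TXNRD2, and the cytosolic GLRX lay below GLRX2. Of the cytosolic peroxiredoxins, PRDX1 lay above and PRDX2 below the mitochondrial PRDX3.

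Genes of neighbouring pathways outside the member rule were read from 5 lists. Of 21 NRF2 pathway genes 15 were matched, to 17 entries of which 14 had at least 10 reads, and 8 of these were higher and 6 lower in the abnormal library. Calls were made for 6 up-regulated genes and 1 down-regulated gene. Of all 12535 genes, which include those under 10 reads, 12.0% and 1.45% were called. The list had a median of 0.89, beside 0.41 over all genes, while its summed reads gave a log2 ratio of 0.27. At the assumed variation of 0.2, BACH1, MAFF and SQSTM1 alone stayed called. NFE2L2, which encodes NRF2 itself, drew 851 reads from the abnormal and 518 from the normal pool, a log2 ratio of 0.75 (95% interval 0.59 to 0.90) that was not called. NFE2L1, its relative that controls proteasome genes, had 715 and 248 reads at 1.56. BACH1, which represses NRF2 targets, had 60 and 7 reads at 3.13, and MAFF, a small MAF partner of both, had 69 and 11 reads at 2.68. SQSTM1, the autophagy receptor that binds KEAP1, had 3266 and 949 reads at 1.81. ABCC1, an exporter of glutathione conjugates, had 100 and 21 reads at 2.28, and HMOX2, the constitutive haem oxygenase, had 1034 and 470 reads at 1.17, which was 0.81 rescaled. BLVRA, the biliverdin reductase that follows it, was down-regulated with 37 and 98 reads at -1.37. MAFK, also on the list, had 24 and 12 reads at 1.03 and was not called. NFE2L2, NFE2L1, BACH1, MAFF and MAFK, which bind the same kind of promoter element, were all higher in the abnormal library. So were 68.8% of all genes with at least 10 reads. KEAP1, the NRF2 inhibitor, had 0 and 1 reads. The abundant ferritin genes, which store iron and are NRF2 targets, lay lower and were not called. FTL had 2075 and 3030 reads at -0.52, and the FTH1 entries had 1314 and 1915 reads at -0.51 and 515 and 873 reads at -0.73, the latter called after rescaling. EPHX1 and AKR1B1, a detoxifying hydrolase and an aldose reductase, lay at -0.54 and -0.32.

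The other lists held fewer calls, beside 12.0% of all 12535 genes called up-regulated and 1.45% called down-regulated. With so few entries, the calls are not read as a result about the lists. Of 7 entries for NADPH supply MTHFD2, a mitochondrial folate enzyme, was up-regulated with 30 and 7 reads at 2.13, and the median was 0.071. Of 7 entries with enough reads for metal response and transport the zinc transporter SLC30A9 was up-regulated with 116 and 43 reads at 1.46, and the factor MTF1, which drives metallothionein genes, had 8 and 2 reads. The median of these 7 entries was 0.22. Of 7 such entries among oxidant sources and sestrins, SESN1, a stress protein that restrains mTORC1, was up-regulated with 1065 and 261 reads at 2.06, and UCP3, a mitochondrial carrier of muscle, with 215 and 69 reads at 1.67, while the median was -0.43. Of 4 entries of the selenocysteine machinery SEPHS2, which makes the selenium donor, was up-regulated with 161 and 63 reads at 1.38, and the median was 0.96. All of these but MTHFD2 stayed called after rescaling, and SESN1 alone at the assumed variation of 0.2.

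**Figure D4:**
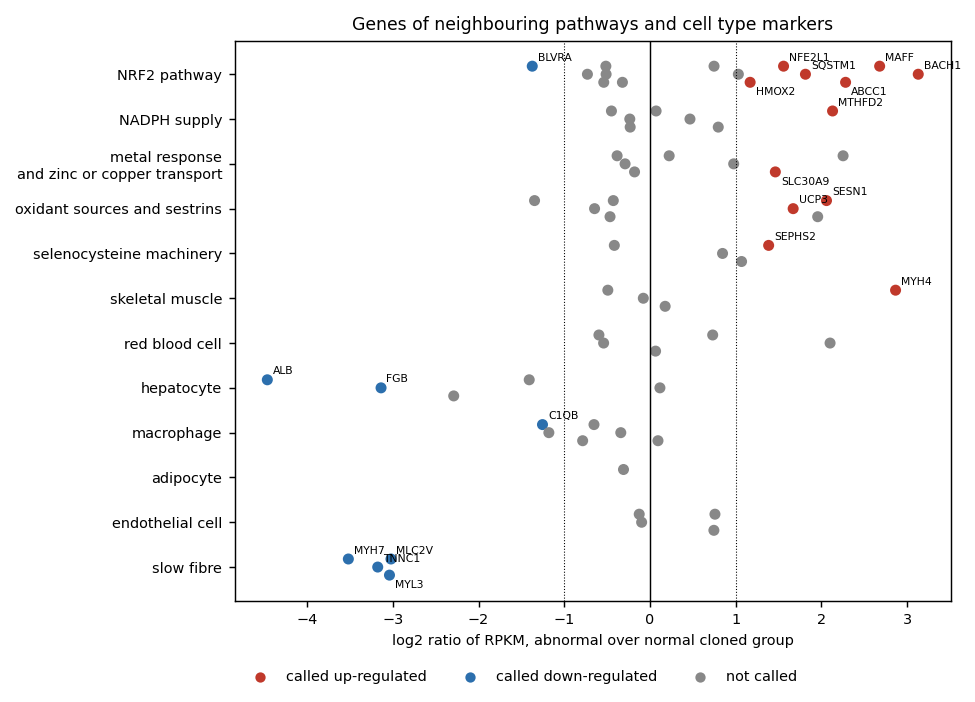
Log2 ratio of the abnormal to the normal RPKM of the entries with at least 10 reads in 1 library or both in 5 pathway lists (top) and 7 marker lists (bottom). Each point is a gene, red and blue points are called and named, and dotted lines mark a log2 ratio of 1 in either direction. The NRF2 pathway held 6 up-regulated genes and 1 down-regulated gene, and all 4 matched slow fibre markers were down-regulated.

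Markers of fibre type and of other cells moved between the libraries as well. The 4 matched slow fibre markers (MYH7, TNNC1, MYL3 and MLC2V) summed to 1870 RPM in the abnormal against 15647 RPM in the normal pool. This was a log2 ratio of -3.06, and all 4 were down-regulated. The 6 matched hepatocyte markers summed to 51.9 and 98.8 RPM with ALB and FGB down-regulated. APOA2 had 0 abnormal and 3 normal reads, too few to show a difference. APOA1 held 298 of the 331 abnormal reads of this list, against 281 of 644 normal reads, at a log2 ratio of 0.12. The 7 matched macrophage markers summed to 57.4 and 93.3 RPM with C1QB down-regulated, while CSF1R had 95 and 91 reads. The 4 endothelial markers summed to 164 and 152 RPM and the 4 adipocyte markers to 5.33 and 6.14 RPM, with 0 calls. PLIN1 had 2 abnormal and 0 normal reads and LEP had 1 and 0, too few to show a difference. MGST2, MGST3, GLRX and PRDX2 were lower in the same library as the slow fibre markers and as most, not all, hepatocyte and macrophage markers, and the part of these cells in their values was not tested.

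The members' ratios also went with transcript length. The 7 up-regulated members had a median length of 1682 bases and the 3 down-regulated members one of 828 bases, beside 1104 bases over the members with at least 10 reads and 1584 bases over all such genes. Over all genes that reached 10 reads in each library, the middle log2 ratio was 0.10 for transcripts of 75 to 999 bases and 0.64 for those of 2672 bases and over. In the shortest class the 18 members had a median of -0.33, and in the class of 1869 to 2671 bases the 8 members had a median of 0.92 beside 0.49 for all genes. With the running median of genes of like length subtracted, GCLM stood at 3.13, MSRB3 at 2.02, TXNRD1 at 1.64 and TMX1 at 1.30 and were still called, while GCLC, TXNL1 and TMX2 were not. MGST2 at -2.23, GLRX at -1.92 and PRDX2 at -1.29 were still called, and MGST3 joined them at -1.08.

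**Figure D5:**
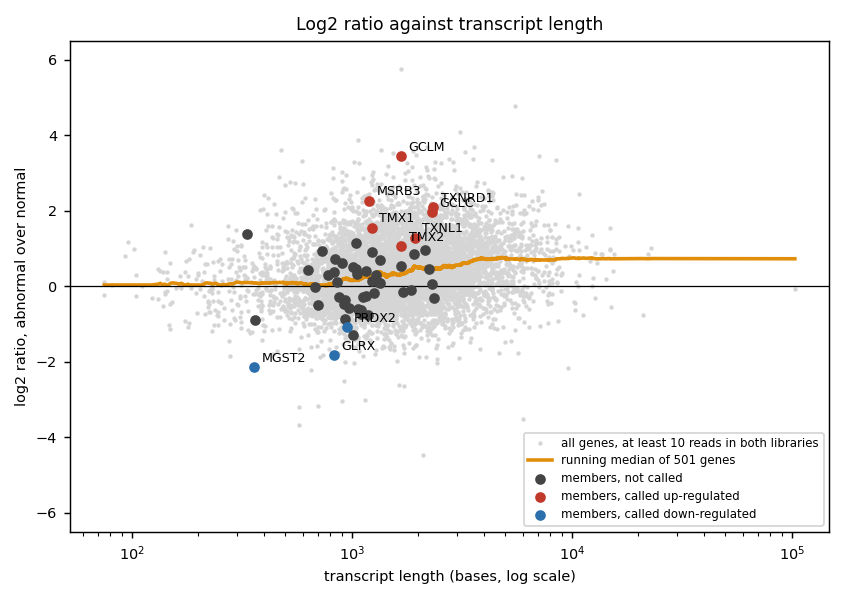
Log2 ratio of the abnormal to the normal RPKM against transcript length in bases (log scale). Small grey points are all genes that reached 10 reads in each of the libraries, the line is their running median over 501 genes, and large points are the members with at least 10 reads in 1 library or both. MGST2, GLRX and PRDX2 lay below the line on transcripts under 1000 bases.

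The remaining 10 members had under 10 reads in both libraries and summed to 19 abnormal and 23 normal reads. They were the overlapping GSTCD entries, the second GSTP-like, GSTM1-like, GSTA1-like and GSTA2 entries, GLO1-like, GRXCR1, GRXCR2 and TXNL6. No difference in them could be detected at this depth.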

How the data were processed

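After removal of adaptors and poor reads, the authors mapped the rest to Sscrofa9 transcripts with SOAPaligner/soap2 (at most 2 mismatches) and deposited, per transcript, the count of uniquely mapped reads, the percent of the transcript covered and the RPKM. The kit as described does not mark strand. Recomputing the deposited RPKM from counts, lengths and totals gave a relative difference of at most 3.3e-08. Both tables were joined, with an absent gene taken as 0 reads. Symbols not given in the tables came from protein descriptions or, by Entrez number, from the RefSeq table of Sscrofa11.1, which gave a symbol for 40 of the 51 members with such a number.

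The log2 ratio of RPKM and the Audic-Claverie test (two-sided by doubling, Benjamini-Hochberg over 12535 genes) follow the thresholds of the study. Wilson intervals (95%) were taken on the part of each gene's reads from the abnormal library. Medians use genes with at least 10 reads in 1 library or both, with 0 reads set to 3. The genes described were MGST2, every called member, the 3 members with the highest mean RPKM in each role group and the called pathway genes. Other members were described after their values were seen. The members and lists were chosen with earlier results of these data known. Alternatives were rescaling by the median ratio or TMM, totals without mitochondrial transcripts, the exact test of edgeR at an assumed variation of 0.2, Fisher's exact test, a minimum of 10 reads in both libraries, an FDR of 0.05, a pseudocount of 1 and, added after the data were seen, a correction for transcript length. The Audic-Claverie test and the interval were tried on simulated counts with counting error only, so variation between pools was not checked. The software was edgeR 4.0.16 in R 4.3.3 and, in Python 3.11.15, scipy 1.17.1, pandas 2.3.3, numpy 2.4.6 and matplotlib 3.10.9.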

Additional observations from a re-analysis of the deposited data

How the results depend on the processing

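The number of up-regulated members was 7, and it was 4 under the median-ratio rescaling, TMM and the length correction, 2 under edgeR's exact test with an assumed variation of 0.2 (GCLM and MSRB3) and 5 to 9 elsewhere. The number of down-regulated members was 3, and it was 7 under the median-ratio rescaling, 8 under TMM, 5 with totals without mitochondrial transcripts and 0 under edgeR's test, and 3 or 4 elsewhere. Over all genes edgeR's test called 243 up- and 20 down-regulated. The median log2 ratio of the members, 0.15, changed sign to -0.21, -0.24, -0.10 and -0.039 under the median-ratio rescaling, TMM, the totals without mitochondrial transcripts and the length correction. Over all genes these settings gave 812 up- and 498 down-regulated, 751 and 548, 986 and 366, and 763 and 461 calls.

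Under the same settings in this order, GPX3 came to -0.26, -0.29, -0.15 and -0.25, PRDX3 to -0.28, -0.31, -0.16 and -0.28, GLRX3 to -0.21, -0.24, -0.10 and -0.11 and SELO to -0.29, -0.33, -0.18 and -0.40. TXNDC12 came to -0.066 under the median-ratio rescaling and -0.10 under TMM, SELK to -0.012 under TMM and TXNIP to -0.039 under the length correction. GCLM, with 5 reads in the normal library, was left out by the 10-read minimum in both libraries. GPX2 was called under Fisher's test, the 10-read minimum and the FDR of 0.05. MGST2, GLRX and PRDX2 lost their call under edgeR's test alone. No paired analysis was possible because each group had 1 library. Genes under 10 reads are limited by depth.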

Other observations

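The reads on ESD were confined to a small stretch of its transcript. The 86 reads in the abnormal and 108 reads in the normal cloned group covered 12.6% and 12.4% of the 1128 bases, about 142 and 140 bases. Genes of like length and read number had a median coverage of 85.4% and 84.9%, and 3 of 252 and 0 of 197 of them were covered as little. The 92 reads on TXNRD1 in the abnormal cloned group covered 38.7% of its transcript, against a median of 73.2% in genes of like length and read number, of which 9 of 225 were covered as little. MGST3 was covered to 70.8% and 70.9% in the abnormal and the normal library, where such genes had medians of 93.0% and 93.3%. The cause was not tested.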
